A study of Mus musculus with 6 samples.

Results

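Glucose breakdown and the hypoxia response were followed through 36 genes in the ventricles of mouse embryos at embryonic day 17.5. The genes were taken by symbol from a list that covers the enzymes of glycolysis and lactate formation, the carriers of glucose and lactate, the kinases that gate pyruvate, and the oxygen-sensing pathway of the hypoxia-inducible factors (HIF). Enolases are not on the list. All 36 were found among the 25006 gene identifiers that each file lists, and all 36 were among the 14815 genes that passed a filter on low counts and were tested.

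The null-labelled group held 3 libraries from embryos labelled VecadcreERT2; Prox1f/f, which carry floxed alleles of Prox1 and a tamoxifen-inducible Cre recombinase driven by the VE-cadherin promoter, active in endothelial cells. The control group held 3 libraries labelled WT. All 6 came from ventricles on an NMRI background, and the pregnant females had been injected with tamoxifen at E13.5 and E14.5, with a dose of 5 mg for every 40 g that they weighed, so control embryos shared that exposure. The breeding named in the labels paired Prox1 f/f females with males that carried the Cre and the floxed alleles, so the WT label does not say which Prox1 alleles the controls carried. Cre was named for the null-labelled libraries only, and Cre and loss of Prox1 cannot be told apart.

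Libraries held 35195544 to 44330594 counts. The targeted gene, Prox1, had 6581, 5809 and 6924 counts in null-labelled libraries and 6549, 5164 and 5265 counts in control libraries. On the scaled level it had 164, 159.8 and 168 CPM in null-labelled libraries, against 149, 143 and 149 CPM in control libraries, so the targeted gene was higher under the null label (log2 fold change 0.15 ± 0.03 (SE), adjusted p = 0.0331 by edgeR, all genes adjusted together). Cardiomyocytes express Prox1 too, and the labels do not name the deleted exons. Counts of Esr1, whose ligand-binding part is fused to inducible Cre, were 298, 244 and 290 in null-labelled libraries and 14, 9 and 19 in control libraries. Null-labelled libraries 1 and 3 stood apart, because both held Y-linked counts together with 1798 and 5738 counts of Xist. The male control libraries had 28 and 29 counts of Xist. Sex was called from Y-linked counts alone, so the male-called libraries are null-labelled 1 and 3 and controls 1 and 2. Fits on male-called libraries therefore have these unusual libraries as their whole null-labelled side, and the term for sex rests on the same call. The labels do not say whether libraries came from separate embryos, and p-values measure only the spread between these samples. Of all genes tested, 801 (5.41%) changed at an adjusted p under 0.05 by edgeR's quasi-likelihood test with Benjamini-Hochberg adjustment over all genes. Every adjusted p below comes from that test unless another is named. Values per library are in CPM, counts relative to library size, scaled by the trimmed mean of M values (TMM).

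Glycolysis splits glucose into pyruvate in the cytosol with a small yield of ATP, and lactate dehydrogenase turns pyruvate into lactate and back. The fetal heart relies on glycolysis and lactate more than the adult heart, which burns mainly fatty acids. HIF couples this pathway to oxygen: its alpha subunits are hydroxylated and destroyed when oxygen is present, and accumulate and switch on glycolytic and other genes when it is scarce.

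Most of these genes were at nearly the same level in both groups. The absolute log2 fold change was under 0.1 in 21 of the 36 genes, between 0.1 and 0.25 in 10 and over 0.25 in 5, and its median was 0.0788, beside 0.0895 over all genes tested. Pdk2, which encodes a kinase that switches off pyruvate dehydrogenase, and Slc2a4, which encodes the insulin-responsive glucose transporter GLUT4, rose in null-labelled ventricles. Gapdh, which encodes the glycolytic enzyme glyceraldehyde-3-phosphate dehydrogenase, fell. The other 33 did not pass. These 3 changed genes are 8.33% of the 36, beside the 5.41% of all genes. Of all genes, 2.43% rose and 2.98% fell. On signed values, 14 of the 36 were above 0 and 22 below, and the median log2 fold change was −0.02, beside a median of 0.00 (−0.00396) over all genes. The count of changed genes was 0 without null-labelled library 1, 0 without library 2, 0 without library 3, and 0 when libraries 1 and 3 were both left out. At an unadjusted p under 0.05 these fits held 8, 6, 11 and 8 of the 36, beside 2498 of 14884, 2423 of 15017, 2550 of 14899 and 1563 of 15194 genes tested in them. With all libraries it was 11 of the 36, beside 20.5% of all genes, and no other tool was run on these subsets. The count of changed genes was 2 without control 1, and 1 without control 2 or without control 3. With all libraries DESeq2 called 5, adding Pfkm and Slc16a3, beside 1095 of 14815 genes, and limma-voom called Gapdh and Pdk2 only, beside 667 genes.

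**Figure D1:**
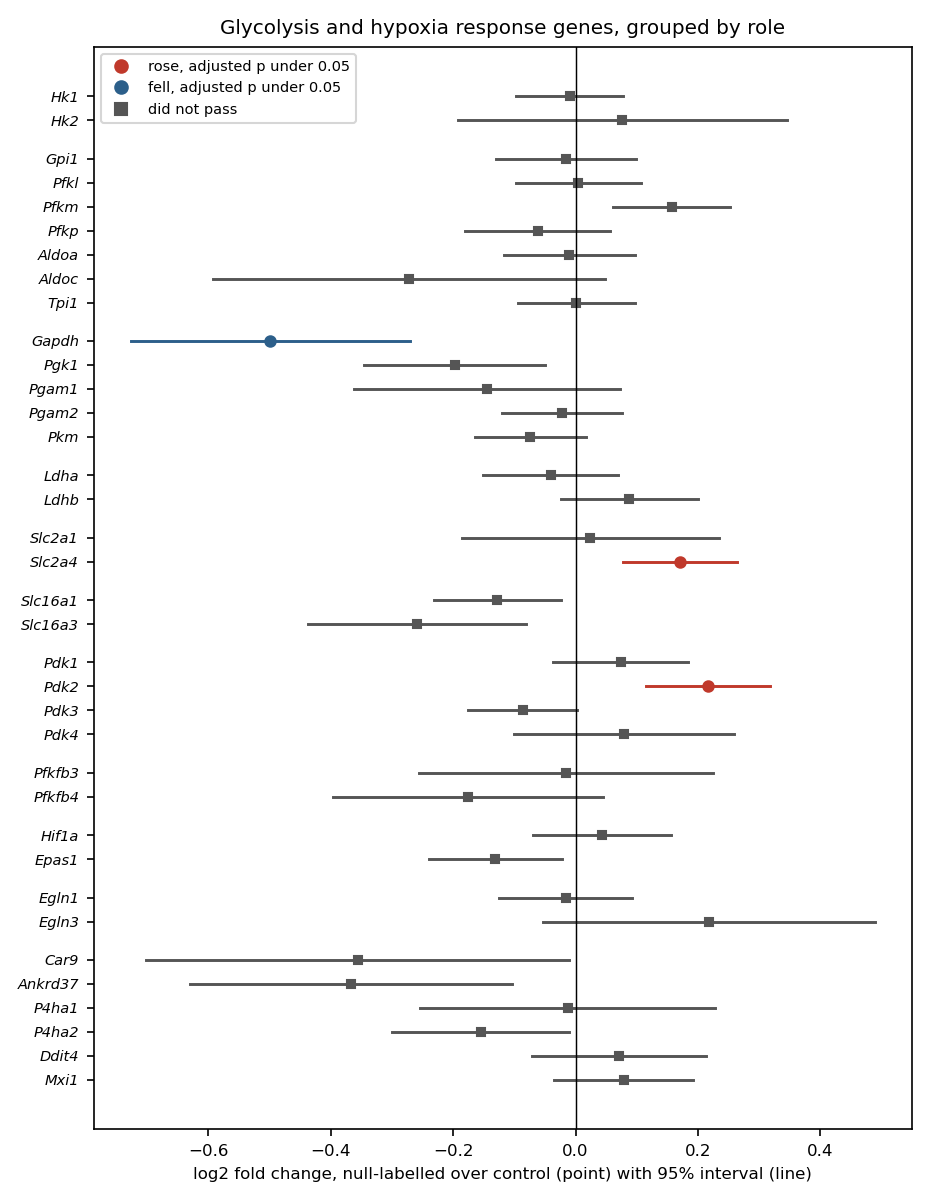
Log2 fold change of each of the 36 genes, null-labelled over control, on the horizontal axis, with the 95% interval as a line, and genes grouped by role down the page. Pdk2 (0.22) and Slc2a4 (0.17) rose, Gapdh (−0.50) fell, and the intervals of most other genes span 0.

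Groups did not overlap between null-labelled and control libraries in 11 of the 36 genes (30.6%), beside 26.6% of all genes tested. In 3 of these, Pdk2, Slc2a4 and Pfkm, every null-labelled library was above every control library. In 8 of these, Gapdh, Pgk1, Pkm, Slc16a1, Slc16a3, Pdk3, Pfkfb4 and Ankrd37, every null-labelled library was below. The shares of all genes in these directions were 12.7% and 13.9%.

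Levels between genes were compared per kilobase of exon, over the union of annotated exons. Aldoa, encoding the aldolase of muscle, was the most abundant at 785 CPM per kb in null-labelled and 790 CPM per kb in control ventricles. Pgam2, Ldhb, Tpi1 and Ldha followed at 490, 413, 402 and 386 CPM per kb in null-labelled ventricles and 498, 389, 401 and 396 CPM per kb in controls. The union of exons is 3310 bases for Ldha and 1570 for Ldhb, against principal transcripts of 1766 and 1304 bases. The order of these genes therefore depends on the length used. Pgk1, Pgam1 and Gapdh stood far below the enzymes of the neighbouring steps. Pgk1 had 13.8 CPM per kb in null-labelled and 15.9 CPM per kb in control ventricles, Pgam1 had 7.73 and 8.56 CPM per kb in that order of groups, and Gapdh had 4.68 CPM per kb in null-labelled and 6.61 CPM per kb in control ventricles. At the other end, Pfkfb4, encoding an isozyme that sets fructose-2,6-bisphosphate, had 1.12 CPM per kb in null-labelled and 1.27 CPM per kb in control ventricles.

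These 3 low enzymes have near copies elsewhere in the genome, mostly processed pseudogenes, which are reverse-transcribed copies of messenger RNA. Every stretch of 50 bases in the coding sequence of Gapdh, Pgk1 and Pgam1 was found also in another annotated gene, that is 0% of stretches were theirs alone, against 47.1% for Pkm, 64.4% for Ldhb, 69% for Ldha, 80.5% for Aldoa and 86.3% for Tpi1. Over the whole principal transcript, 17.5% of such stretches were found in no other gene for Gapdh, 32% for Pgk1 and 58.5% for Pgam1. Gapdh shared stretches with 222 other genes, of which 213 are processed pseudogenes, Pgk1 with 5 and Pgam1 with 4. The 60-base coding stretches below, from GENCODE exons on GRCm38, are shown because each is present letter for letter in other annotated genes, 69 for Gapdh, 3 for Pgk1 and 2 for Pgam1.
Gapdh, exon 4, chr6:125162896-125162955, minus strand: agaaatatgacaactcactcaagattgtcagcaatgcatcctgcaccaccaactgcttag
Pgk1, exon 8, chrX:106200208-106200267, plus strand: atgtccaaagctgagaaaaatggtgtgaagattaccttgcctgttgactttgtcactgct
Pgam1, exon 2, chr19:41915608-41915667, plus strand: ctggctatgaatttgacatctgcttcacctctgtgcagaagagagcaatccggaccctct
A read that lies within such a stretch fits several places, and how the counting treated such reads is not given in the sources used here. The levels of Gapdh, Pgk1 and Pgam1 are therefore uncertain, and the part of these copies in their differences between groups was not tested. Hk1, Gpi1, Pfkm, Pfkp, Pkm, Slc2a1, Hif1a, Car9, Ankrd37 and Mxi1 also share letters with a gene that overlaps them, some of these on the opposite strand, and their counts are uncertain to that extent.

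**Figure D2:**
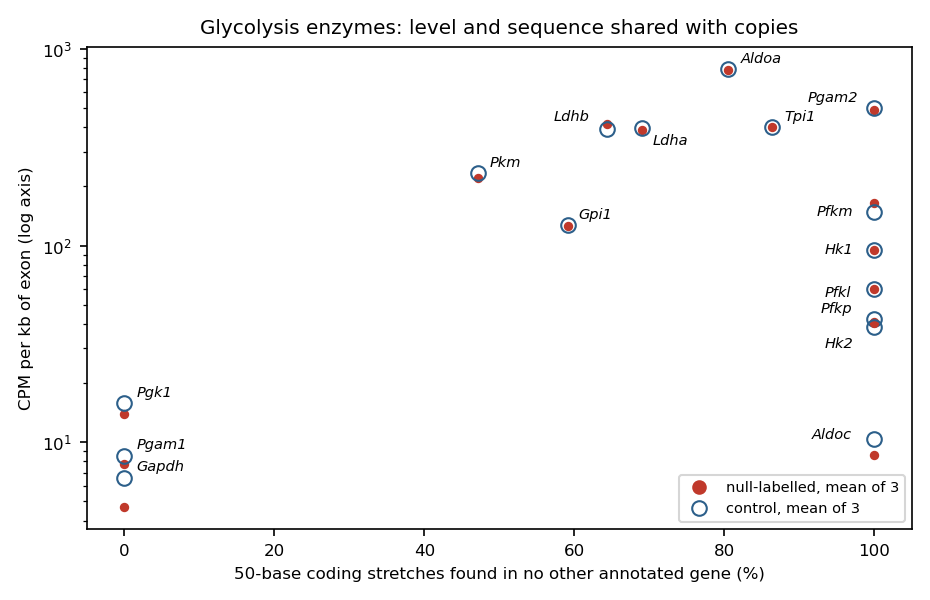
Mean level of 16 glycolysis enzymes and lactate dehydrogenases in CPM per kb of exon (log axis) against the share of 50-base coding stretches found in no other annotated gene, with filled points for null-labelled and open points for control ventricles. Gapdh, Pgk1 and Pgam1 sit at 0% and between 4.68 and 15.9 CPM per kb, while Aldoa reaches 790 CPM per kb.

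Glucose enters the cell through Slc2a1 and Slc2a4, which encode the transporters GLUT1, the main fetal form, and GLUT4. Slc2a4 (ENSMUSG00000018566, chromosome 11, 69942539 to 69948188, GRCm38) had 122, 119 and 114 CPM in null-labelled libraries, against 110.0, 104 and 102 CPM in control libraries. All 3 null-labelled libraries were above all 3 controls. Its log2 fold change was 0.17 ± 0.04 (SE), with a 95% interval from 0.08 to 0.26 and adjusted p = 0.0452. The call ended in limma-voom (adjusted p = 0.066), with a term for sex (0.0677) and without any single library other than control 1 (0.0718 to 0.149). Without null-labelled libraries 1 and 3 together the log2 fold change was 0.18 with adjusted p = 0.413, and in male-called libraries alone adjusted p was 0.181. Slc2a1 had 181, 160.4 and 188 CPM in null-labelled libraries and 169, 158 and 194 CPM in control libraries, and the groups overlapped. Its log2 fold change was 0.02 with an interval from −0.19 to 0.23.

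Hexokinase, the enzyme that traps glucose in the cell, is encoded by Hk1 and Hk2. Hk1 averaged 806 ± 15.2 CPM in null-labelled and 811 ± 16.98 CPM in control ventricles (SD, n = 3 each), a log2 fold change of −0.01 with an interval from −0.10 to 0.08. Hk2 had 259.6, 209.9 and 256 CPM in null-labelled libraries and 218, 211 and 259.3 CPM in control libraries. The groups overlapped, with null-labelled library 2 low and control 3 high, and the interval ran from −0.19 to 0.35.

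Of the 7 enzymes from glucose-6-phosphate to the triose phosphates, 0 passed in edgeR or limma-voom. Pfkm was the 1 with an unadjusted p under 0.05, and it passed in DESeq2. Pfkm encodes the muscle isozyme of phosphofructokinase, the committed step of glycolysis. It had 555, 548 and 546 CPM in null-labelled libraries, against 509, 500.5 and 469.7 CPM in control libraries. The null-labelled libraries lay close together and did not overlap the controls. Pfkm had a log2 fold change of 0.16 ± 0.04 (SE), with an interval from 0.06 to 0.25 and adjusted p = 0.0645 in edgeR and 0.00407 in DESeq2. With upper quartile scaling it passed in edgeR too (0.0468). An antisense transcript overlaps Pfkm, and whether the counting used strand is not given in the sources used here.

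The liver isozyme Pfkl and the platelet isozyme Pfkp had log2 fold changes of 0.00 (interval −0.10 to 0.11) and −0.06 (interval −0.18 to 0.06). Gpi1, which encodes the isomerase of glucose-6-phosphate, Aldoa, and Tpi1, which encodes the isomerase of the triose phosphates, were at −0.02, −0.01 and 0.00, and their intervals lay between −0.13 and 0.10. Aldoc, the aldolase of brain, had 27.5, 24.3 and 32.3 CPM in null-labelled libraries and 32.5, 30.1 and 39.2 CPM in controls. Its groups overlapped and its log2 fold change of −0.27 had an interval from −0.59 to 0.05.

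In the payoff steps of glycolysis, Gapdh (ENSMUSG00000057666, chromosome 6, 125161715 to 125166467, GRCm38) had 17.01, 20.1 and 20.9 CPM in null-labelled libraries, against 28.6, 23.9 and 29.4 CPM in control libraries. Its raw counts were 684, 731 and 863 in null-labelled libraries and 1259, 860 and 1040 in control libraries. Every null-labelled library was below every control on the scaled level, with control 2 the lowest control. Its level averaged 19.3 ± 2.05 CPM in null-labelled and 27.3 ± 2.99 CPM in control ventricles (SD, n = 3 each). This is a log2 fold change of −0.50 ± 0.10 (SE), a 0.708-fold level, with an interval from −0.73 to −0.27 and adjusted p = 0.0273. The call ended without any single library other than control 2 (adjusted p 0.0546 to 0.0856), and without null-labelled libraries 1 and 3 together it was −0.44 with adjusted p = 0.312. In male-called libraries alone, where the null-labelled side is libraries 1 and 3, adjusted p was 0.121.

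The next enzymes were Pgk1 (phosphoglycerate kinase), Pgam1 and Pgam2 (the brain and muscle isozymes of phosphoglycerate mutase) and Pkm (pyruvate kinase of muscle). Pgk1 had 32.1, 29.3 and 31.7 CPM in null-labelled libraries and 39.0, 34.4 and 33.4 CPM in control libraries. The groups did not overlap, but the gap between them was small beside the spread of the controls, and adjusted p was 0.124. The log2 fold change of −0.20 had an interval from −0.35 to −0.05. Pkm averaged 1105 ± 32.2 CPM in null-labelled and 1163 ± 23.1 CPM in control ventricles (SD, n = 3 each). Its groups did not overlap, and its log2 fold change of −0.07 had an interval from −0.16 to 0.02. Pgam1 and Pgam2 were at −0.15 and −0.02 with overlapping groups. Of the 5 enzymes of these steps, all had fold changes below 0 and 1, Gapdh, passed. Over all genes, 7589 of 14815 were below 0 and 5.41% changed. Gapdh, Pgk1 and Pgam1 are those whose levels are uncertain because of copies, and the intervals of Pgam2 and Pkm spanned 0.

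Lactate dehydrogenase is a tetramer of the subunits encoded by Ldha, favoured by glycolytic tissue, and Ldhb, favoured by the oxidative heart. Ldha averaged 1276 ± 63.7 CPM in null-labelled and 1312 ± 51.1 CPM in control ventricles (SD, n = 3 each), a log2 fold change of −0.04 with an interval from −0.15 to 0.07. Ldhb had 655, 649 and 643 CPM in null-labelled libraries and 645, 618 and 569 CPM in control libraries. The groups overlapped at control 1 alone. Ldhb had a log2 fold change of 0.09 with an interval from −0.02 to 0.20.

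Lactate crosses the membrane through the carriers MCT1, encoded by Slc16a1, and MCT4, encoded by Slc16a3, a known HIF target that serves mainly export. Slc16a3 had 145, 128 and 154 CPM in null-labelled libraries, against 175, 157 and 178 CPM in control libraries. There was no overlap, and library 2 was the lowest in each group. The log2 fold change was −0.26 ± 0.08 (SE), with an interval from −0.44 to −0.08. It did not pass in edgeR (adjusted p = 0.105) or limma-voom (0.0899), and DESeq2 called it (0.0121). Slc16a1 had 218, 211 and 227 CPM in null-labelled libraries and 252, 229 and 235 CPM in control libraries. There was again no overlap, and its log2 fold change of −0.13 had an interval from −0.23 to −0.02 and adjusted p = 0.152.

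Pyruvate dehydrogenase kinases phosphorylate pyruvate dehydrogenase and so keep pyruvate out of the mitochondrial cycle, and the 4 isozymes are encoded by Pdk1 to Pdk4. Pdk2 (ENSMUSG00000038967, chromosome 11, 95026258 to 95041354, GRCm38) had 253, 262 and 255 CPM in null-labelled libraries, against 234, 219 and 210.1 CPM in control libraries. Here too the null-labelled libraries lay above the controls. It averaged 257 ± 5.00 CPM in null-labelled and 221 ± 12.1 CPM in control ventricles (SD, n = 3 each). Its log2 fold change was 0.22 ± 0.05 (SE), a 1.16-fold higher level, with an interval from 0.12 to 0.32 and adjusted p = 0.0267. DESeq2 and limma-voom called it too. The call ended without any null-labelled library or control 2 (adjusted p 0.0664 to 0.111), and without null-labelled libraries 1 and 3 together it was 0.25 with adjusted p = 0.293. In male-called libraries alone it did not pass (0.112).

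Per kilobase, Pdk2 and Pdk1 were the most abundant of the 4 kinases, at 81.2 and 76.6 CPM per kb in null-labelled and 69.8 and 72.8 CPM per kb in control ventricles. Pdk1, the isozyme known as a HIF target, averaged 596 ± 19.1 CPM in null-labelled and 567 ± 30.6 CPM in control ventricles (SD, n = 3 each). Its log2 fold change of 0.07 had an interval from −0.04 to 0.18. Pdk3 had 50.6, 50.6 and 49.9 CPM in null-labelled libraries and 54.2, 53.8 and 52.4 CPM in control libraries. The groups did not overlap, yet the difference was small, with a log2 fold change of −0.09 and adjusted p = 0.26. Pdk4, induced by fasting and fatty acids, was at 0.08 with an interval from −0.10 to 0.26. Of the fructose-2,6-bisphosphate regulators, Pfkfb3 was at −0.02 with overlapping groups. Pfkfb4 had 5.57, 5.56 and 5.28 CPM in null-labelled libraries and 5.82, 6.47 and 6.25 CPM in control libraries, groups that did not overlap, with adjusted p = 0.357.

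**Figure D3:**
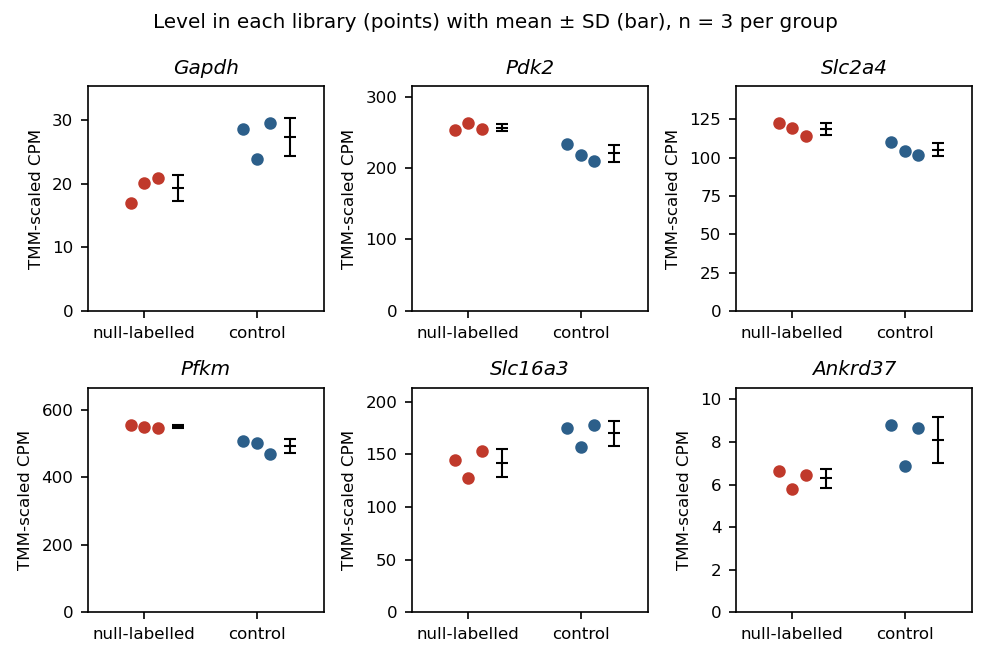
TMM-scaled CPM of 6 genes in each library (points), null-labelled left and control right, with mean ± SD as a bar (n = 3 each). Null-labelled points lie below all control points for Gapdh, Slc16a3 and Ankrd37, and above them for Pdk2, Slc2a4 and Pfkm, of which Gapdh, Pdk2 and Slc2a4 passed the test.

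Of the 10 HIF subunit, hydroxylase and hypoxia-induced genes, 0 passed in edgeR, DESeq2 or limma-voom. At an unadjusted p under 0.05 in edgeR there were 4, beside 20.5% of all genes. The median log2 fold change of the 10 was −0.01. Hif1a, encoding the broadly expressed HIF alpha subunit, had 263, 241 and 249 CPM in null-labelled libraries and 229, 247 and 255 CPM in control libraries, and the groups overlapped. Epas1, encoding HIF-2 alpha, which is prominent in endothelium, had 165, 156 and 157 CPM in null-labelled libraries and 178, 162 and 183 CPM in control libraries. Its groups overlapped too. The log2 fold change was 0.04 for Hif1a (interval −0.07 to 0.16) and −0.13 for Epas1 (interval −0.24 to −0.02, adjusted p = 0.159).

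Egln1 and Egln3 encode prolyl hydroxylases that mark HIF alpha for destruction, and Egln3 is itself induced by HIF. Egln3 had 149, 136 and 150.5 CPM in null-labelled libraries, against 125, 106 and 143 CPM in control libraries. Control 3 lay within the null-labelled range. The log2 fold change of 0.22 had an interval from −0.05 to 0.49, the highest upper bound among the 36 genes. Egln1 was at −0.02 with an interval from −0.12 to 0.09.

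Among 6 genes known to be induced by hypoxia, 0 passed and 3 had an unadjusted p under 0.05, a threshold that 20.5% of all genes passed. Ankrd37, an ankyrin repeat gene regulated by HIF, had 6.61, 5.78 and 6.46 CPM in null-labelled libraries and 8.79, 6.86 and 8.66 CPM in control libraries. Groups were separate, by a narrow margin at control 2. The log2 fold change was −0.37 with an interval from −0.63 to −0.10 and adjusted p = 0.108. Part of its sequence is shared with the overlapping gene Lrp2bp.

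Car9, encoding the membrane carbonic anhydrase used as a hypoxia marker, had 3.66, 4.92 and 5.28 CPM in null-labelled libraries and 5.23, 5.95 and 6.59 CPM in control libraries. The groups overlapped at null-labelled library 3 and control 1, and adjusted p was 0.231 for a log2 fold change of −0.36. P4ha1 and P4ha2 encode collagen prolyl hydroxylase subunits. P4ha2 was at −0.15 with an interval from −0.30 to −0.01 and P4ha1 at −0.01 with an interval from −0.25 to 0.23. Ddit4, which restrains mTORC1, and Mxi1, which opposes Myc, were at 0.07 and 0.08 with intervals that spanned 0.

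Within families of isozymes, the share of each in the length-scaled counts was compared between libraries. The length used was the union of annotated exons, which can exceed the principal transcript. For P4ha2 these were 6239 and 2230 bases, and for P4ha1 4114 and 4043 bases. The shares are therefore read between groups and do not rank the forms of a family. Pfkm held 61.7%, 62.6% and 61.5% of phosphofructokinase counts in null-labelled libraries, against 59.7%, 60.6% and 56.6% in control libraries. The groups did not overlap, and Pfkp was lower in all null-labelled libraries (mean 15.3% against 16.9% in controls). Ldhb held 51.8 ± 1.34% of lactate dehydrogenase counts in null-labelled and 49.5 ± 2.55% in control ventricles (SD, n = 3 each), and the groups overlapped. Pgam2 held 98.4% of mutase counts in null-labelled and 98.3% in control ventricles, a share that is uncertain because reads of Pgam1 fit copies.

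Pdk2 held 39.7%, 41.4% and 40.3% of kinase counts in null-labelled libraries, against 38.5%, 38.8% and 35.7% in control libraries, without overlap. Egln3 held 46.7%, 46.1% and 46.9% of the 2 hydroxylases in null-labelled libraries, against 41.6%, 40.2% and 45.4% in control libraries. These groups did not overlap, although those of Egln3's own level did. Epas1 held 40.1 ± 0.482% of the summed counts of Hif1a and Epas1, without Hif3a, in null-labelled and 43.0 ± 2.03% in control ventricles (SD, n = 3 each). P4ha2 held 34.1 ± 0.685% and 36.4 ± 1.10% of its pair in the same order of groups. Slc16a3 held 35.04% of the summed counts of Slc16a1 and Slc16a3 in null-labelled and 37.2% in control ventricles on average. In these last 3 families every null-labelled library was below every control. The shares were described without a test, and those of Hk2, Aldoc, Pgam2, Slc2a4 and Pdk1 overlapped. Shares of other gene families were not computed, so how often shares separate by group is not known here. For single genes it was 26.6%. The shares of Pfkm and Pfkp come from 1 family and do not vary independently.

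**Figure D4:**
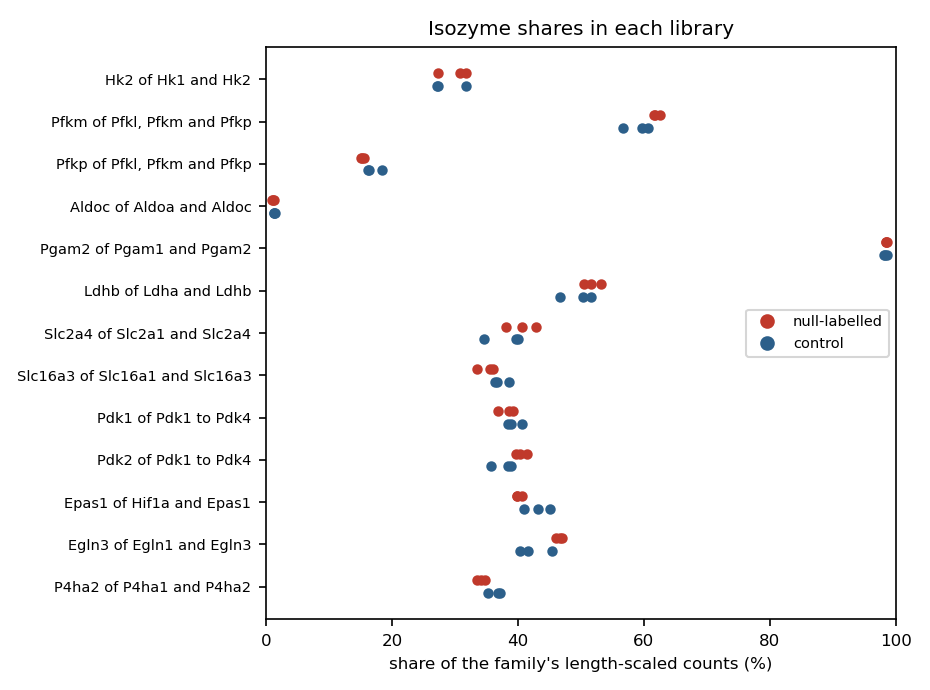
Share of an isozyme in the length-scaled counts of its family (percent, horizontal axis) in each library, null-labelled points above control points. The Egln3 share averaged 46.6% in null-labelled and 42.4% in control ventricles, and the Pfkm share 61.9% and 59.0% in the same order.

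Libraries of a group differed from each other in a pattern that crossed the groups. Within each group, library 2 was the lowest for most of the 36 genes, namely for 22 (61.1%) in the null-labelled group and for 23 (63.9%) in the control group. The shares over all genes tested were 33.9% and 31.9%, near an even split. Among the 10 HIF subunit, hydroxylase and hypoxia-induced genes, library 2 was lowest for 8 in each group. The replicate numbers are not said to mark a shared litter or day, and null-labelled library 2 was female by Xist while control 2 was male.

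Library 2 was also the most frequent lowest library in 22 other HIF target genes, for 15 (68.2%) in the null-labelled group and 14 (63.6%) in controls. The rest of the order differed. Null-labelled library 3 was highest of its group for 20 of the 36 genes, but library 1 for 12 of these 22. Control 1 was the highest control for 17 of the 36 and for 3 of the 22. Control 3 was the highest control for 19 of these 22 (86.4%), beside 36.8% of all genes, with a median deviation of 0.13 on the log2 scale from the mean of the controls. The spread among controls in Egln3, Hk2, Slc2a1 and P4ha1 is of this kind, with control 2 the lowest and control 3 the highest. Control 3 also held the most erythroid marker counts, at 5075 CPM summed over 10 genes, beside 1207 to 1968 CPM in null-labelled libraries and 1746 and 2893 CPM in the other controls. Its liver markers summed to 14.2 CPM over 6 genes, beside 2.09 to 4.6 CPM in null-labelled libraries and 0.545 and 0.972 CPM in the other controls. Null-labelled library 2 held 5.53 CPM of lung epithelium markers summed over 5 genes, beside 0.398 and 0.363 CPM in the other null-labelled libraries and 0.0455 to 0.142 CPM in controls. The part of these markers in the order of the libraries was not tested.

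**Figure D5:**
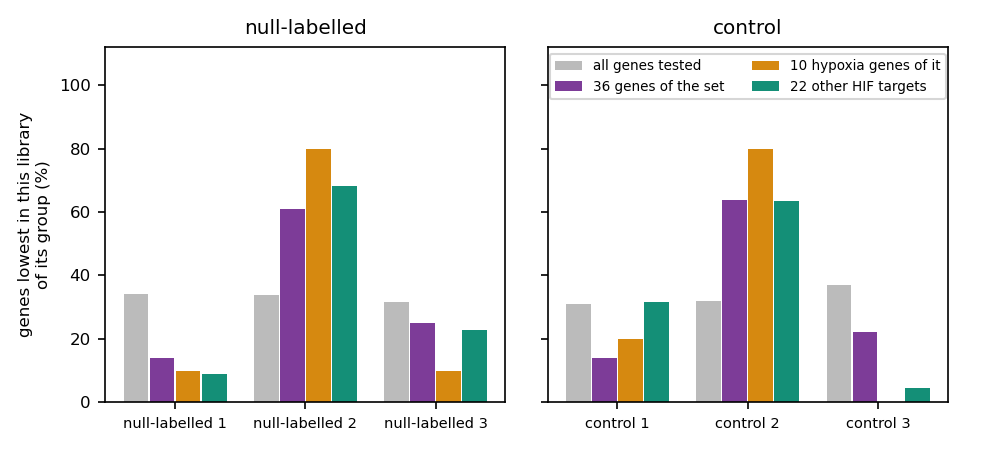
Share of genes (percent, vertical axis from 0) for which a library was the lowest of its group of 3, null-labelled left and control right. Bars are for all genes tested, the 36 genes, their 10 HIF subunit, hydroxylase and hypoxia-induced genes, and 22 other HIF targets. Library 2 is lowest for 61.1% of the 36 genes in the null-labelled group and for 63.9% in the control group.

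Promoters of these genes were searched for ACGTG and GCGTG, the core letters of the hypoxia response element that HIF binds, on both strands, with overlapping matches counted separately. RefSeq windows of 300 bases (250 before to 50 after a start, GRCm38.p6) existed for 34 of the 36 genes. Of these 34 genes, 31 had a match, beside 46.7% of all genes with a window. By window, 79.2% of 48 held a match, beside 43.8% of all 32851 windows. Both cores hold the letters CG, and the windows compared were not matched for CG content. The list also includes genes known to be induced by hypoxia, so these shares do not test a link of the set to HIF. The 250 bases before a start of Pdk2, Ldha and Ankrd37 are shown with the matches in capitals, so that a gene that passed can be read beside genes that did not. Pdk2 rose, Ldha is a textbook HIF target that did not pass, and Ankrd37 had the second lowest fold change. For a gene with more than 1 window, the window with most matches was chosen. Pdk2 had 2 windows, of which 1 held a match. Ldha had 2 windows that both held a match, and Ankrd37 had 1 window.
Pdk2, chr11:95041372-95041621, minus strand: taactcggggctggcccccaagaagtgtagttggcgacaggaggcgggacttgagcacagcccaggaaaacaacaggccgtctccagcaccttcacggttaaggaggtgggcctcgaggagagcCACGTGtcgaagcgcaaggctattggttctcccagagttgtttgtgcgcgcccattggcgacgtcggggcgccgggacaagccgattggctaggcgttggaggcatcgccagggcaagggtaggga
Ldha, chr7:46845554-46845803, plus strand: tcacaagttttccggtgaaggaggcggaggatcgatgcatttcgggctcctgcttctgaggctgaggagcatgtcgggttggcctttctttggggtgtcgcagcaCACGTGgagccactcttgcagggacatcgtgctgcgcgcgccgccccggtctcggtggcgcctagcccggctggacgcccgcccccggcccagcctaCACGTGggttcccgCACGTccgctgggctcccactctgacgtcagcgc
Ankrd37, chr8:45999851-46000100, minus strand: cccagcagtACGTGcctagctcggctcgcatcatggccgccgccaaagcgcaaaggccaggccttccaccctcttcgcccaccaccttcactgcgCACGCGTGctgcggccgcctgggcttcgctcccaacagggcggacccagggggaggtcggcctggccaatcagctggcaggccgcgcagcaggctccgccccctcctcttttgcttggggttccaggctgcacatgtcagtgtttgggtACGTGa
In Pdk2 the 2 matches are both strands of the palindrome CACGTG, Ldha shows 5 matches and Ankrd37 shows 4. A match describes letters only and does not show that a factor binds there.

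The pathways around glycolysis were read from 7 further lists with 91 genes, of which 85 were tested. In these, 3 rose and 1 fell (4.71%, beside 5.41% of all genes), and the median log2 fold change was 0.02. Ppargc1a, encoding the coactivator PGC-1 alpha that drives mitochondrial and oxidative genes, had 284, 298 and 291 CPM in null-labelled libraries, against 238, 239 and 241 CPM in control libraries. The groups were far apart relative to their spread, with a log2 fold change of 0.28 ± 0.04 (SE) and adjusted p = 0.00384. Its related coactivator Ppargc1b was at −0.15 and did not pass (adjusted p = 0.177).

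The pentose phosphate and hexosamine branches, which draw on glucose-6-phosphate and fructose-6-phosphate, held 3 changed genes of 10 (30%, beside 5.41% of all genes). H6pd, the hexose-6-phosphate dehydrogenase of the endoplasmic reticulum, had 77.3, 74.0 and 75.0 CPM in null-labelled libraries, against 66.7, 64.1 and 62.6 CPM in control libraries, and rose (log2 fold change 0.23 ± 0.04, adjusted p = 0.0175). Gfpt2, an isozyme of the entry step to hexosamines, had 20.4, 18.7 and 20.8 CPM in null-labelled libraries and 16.3, 16.1 and 15.5 CPM in control libraries, and rose (0.32 ± 0.07, adjusted p = 0.0232). Tkt, the transketolase of the non-oxidative branch, had 74.3, 70.5 and 76.2 CPM in null-labelled libraries and 82.2, 84.3 and 86.3 CPM in control libraries, and fell (−0.19 ± 0.04, adjusted p = 0.0325). None of the 3 had overlapping groups, but they are named for passing on these same values, so this adds no support. Without null-labelled library 1 only Ppargc1a of these 4 genes passed, without library 2 Gfpt2 and Ppargc1a did, without library 3 or control 2 Ppargc1a did, without control 3 all but Tkt did, and without libraries 1 and 3 together 0 of the 85 genes passed (9 at an unadjusted p under 0.05).

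Of 12 glycogen genes, 11 had fold changes above 0 (7226 of 14815 over all genes), and 0 passed in edgeR or limma-voom. Pygb was the 1 with an unadjusted p under 0.05, and it passed in DESeq2. Pygb, the brain form of glycogen phosphorylase, had 613, 617 and 612 CPM in null-labelled libraries and 539, 553 and 576 CPM in control libraries, without overlap (log2 fold change 0.14, adjusted p = 0.0749). Pygl, the liver form, was at 0.39 with overlapping groups and an interval from −0.03 to 0.81. Of 13 genes of pyruvate entry, 10 regulators of HIF, 22 other HIF targets and 9 other glycolysis genes, 0 passed in edgeR, DESeq2 or limma-voom, and 1, 1, 2 and 1 had an unadjusted p under 0.05, listed in that order. Cited2, a HIF-induced protein that competes with HIF for its coactivators, was at 0.22 with groups that did not overlap and adjusted p = 0.0801. Bhlhe40, a HIF-induced repressor, was at −0.21 (adjusted p = 0.115) and Plin2, a coat protein of lipid droplets, at 0.15 (adjusted p = 0.14). With 1 library left out, some of the other HIF targets passed in edgeR. Bhlhe40 and Vegfa passed as lower without control 2, Plod1 as lower without null-labelled library 1, and Plin2 as higher without control 3.

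The cell types that share the ventricle differed between the groups in their markers. The cardiomyocyte markers, 10 genes led by myosins and troponins, summed to 69642 to 71268 CPM in null-labelled and 67329 to 73280 CPM in control libraries, which is the high level that the tissue label calls for, and 1 of 10 fell (Actc1). The endothelial markers summed to 1607 to 1761 CPM in null-labelled and 1910 to 2163 CPM in control libraries, and 5 of 10 fell. The fibroblast markers summed to 8629 to 9610 CPM in null-labelled and 6947 to 8223 CPM in control libraries, and 3 of 8 rose. The macrophage markers summed to 115 to 143 CPM in null-labelled and 89.8 to 105 CPM in control libraries, and 5 of 10 rose. The atrial myocyte markers summed to 611 to 1120 CPM in null-labelled and 1140 to 1491 CPM in control libraries. They did not move together, with fold changes above 0 in 3 (Sln, Myl7 and Bmp10) and below 0 in 2 (Nppa and Myl4). Of these 5 genes 0 passed in edgeR and 1, Nppa, had an unadjusted p under 0.05, with a log2 fold change of −1.35 and adjusted p = 0.107. Of the 8 erythroid markers tested, all had fold changes below 0 and 0 passed in edgeR. Their median log2 fold change was −0.88, and at an unadjusted p under 0.05 there were 2. In whole ventricle, fewer cells of a type and less RNA per cell cannot be told apart. The part of these shifts in the 36 genes, among them Epas1, Pdk2, Slc2a4 and Gapdh, was not tested.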

How the data were processed

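RNA from 3 null-labelled and 3 control ventricle samples was read as whole-number counts per gene, as deposited, 1 file per library and without normalisation. The submitters' processing notes name mm10, HTSeq 0.6.1p1, STAR, cutadapt 1.13 and DESeq2. Which annotation was used, whether strand was counted and how reads that fit several places were treated is not stated there. Of 25006 identifiers, 24991 were matched to GENCODE M21, and the other 15 took no more than 0.00212% of the counts in any library. Mitochondrial genes had no counts in any library. In R 4.3.3, edgeR 4.0.16 was run with filterByExpr by group, TMM scaling, robust quasi-likelihood dispersion and group as the only term, two-sided, on all genes at once. Standard errors came from the fold change and its F statistic. Library totals of 35195544 to 44330594 make 3 counts equal to 0.0677 to 0.0852 CPM, which covers counting error only. Levels per kilobase used the union of GENCODE exons.

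Sequence shared with other genes was counted as identical 50-base stretches of annotated transcripts. Members and lists were chosen with earlier results of these data known. All 36 genes are named. Genes of the other lists are named where they passed, otherwise among those of smallest p. Alternatives were other scalings, filters, DESeq2 1.42.0, limma-voom of limma 3.58.1, each library left out, a replicate block, a sex term, a threshold of 0.1 and leaving out the haemoglobin genes. Male-called libraries alone, and the omission of null-labelled libraries 1 and 3, were added after the data were seen.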

Additional observations from a re-analysis of the deposited data

How the results depend on the processing

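Over 648 alternative values of the 36 fold changes, 584 kept direction and side of the threshold, 23 lost a call, 7 gained one and 34 changed sign. Across all genes the count of 801 was 1430 at a threshold of 0.1, 461 in male-called libraries and 52 without null-labelled libraries 1 and 3, and 258 to 942 when 1 library was left out (258 without null-labelled library 2, 277 without library 3, 385 without library 1, 402 without control 2). Of the 36 genes, DESeq2 called 5, male-called libraries 1 (Hk2, log2 fold change 0.27, adjusted p = 0.0211), and null-labelled libraries 1 and 3 left out 0. Leaving out 1 library gave 0 to 2 for the 36 genes and 1 to 6 for the 85 genes of the other lists, which gave 2 in male-called libraries and 0 without both. Same-numbered libraries deviated from their group means with correlations of −0.0628, −0.0564 and −0.127, so over all genes the numbers did not pair them, although library 2 was lowest in both groups for most of the 36 genes. With a replicate block 570 genes changed, 4 of the 36 (Aldoc, Gapdh, Slc16a3 and Slc2a4, without Pdk2 at adjusted p = 0.0534) and 2 of the 85. The standard error fell to 0.0472 with the block, against 0.134 without it, for Aldoc, and to 0.0348, against 0.0759, for Slc16a3. The Pgam2 share differed by 0.313 points on raw counts, null-labelled minus control, against 0.139 with length. The cause of these shifts was not tested, beyond fewer libraries in a fit.

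Sign changes occurred in genes near 0, none of which passed where its sign had changed. Hk1 was 0.00027 with upper quartile scaling. Without null-labelled libraries 1 and 3, Hk2 was −0.128, Pfkl −0.0566, Tpi1 −0.0618, Slc2a1 −0.112 and Hif1a −0.0172. In male-called libraries, Gpi1 was 0.0041, Pfkp 0.00098, Aldoa 0.0283, Ldha 0.0315, Pfkfb3 0.144, Egln1 0.0299 and P4ha1 0.147. With 1 library left out, the lowest and highest values were −0.0248 and 0.0072 for Hk1, −0.0696 and 0.0191 for Gpi1, −0.0296 and 0.0346 for Pfkl, −0.0402 and 0.0286 for Aldoa, −0.0210 and 0.0321 for Tpi1, −0.0626 and 0.0052 for Pgam2, −0.0404 and 0.11 for Slc2a1, −0.109 and 0.102 for Pfkfb3, −0.0619 and 0.0150 for Egln1, and −0.100 and 0.0959 for P4ha1.

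Intervals bound the fold changes that this design could miss: their bounds lay a median of 0.11 from the fold change on the log2 scale. Car9, at under 10 CPM, had an interval from −0.70 to −0.01. Differences in protein or enzyme activity were not measured.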
